A study of Mus musculus with 12 samples.

Results

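The 9 genes described here are Tat, Tdo2, Sds, Fkbp5, Tsc22d3, Sgk1, Dusp1, Mt1 and Mt2, a set made of genes that glucocorticoids induce in liver and the metallothionein pair. They were chosen by symbol from a Ribo-seq table of 25033 entries, of which 15749 genes were above 0 in at least 1 library. Livers came from male C57BL/6 mice aged 16 weeks that had eaten a high-fat diet (HFD, n = 3 libraries) or that diet with lycopene, the red carotenoid of tomato (LYC, n = 3 libraries), for 8 weeks from the age of 8 weeks. Both groups therefore carry the high-fat diet, and no mice on standard feed are in these tables. In the labels the treatment of LYC is given as high-fat diet only, so the lycopene feed rests on the sample titles and the study's methods. The protocol in the labels also speaks of pooling RNA or footprints by group, whereas the titles number replicates. The study's text calls them biological replicates, 3 in each group. If pools were split, the p-values below measure technical spread.

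Glucocorticoids are adrenal steroids that enter hepatocytes, bind the glucocorticoid receptor and send it to the nucleus, where it binds DNA and raises or lowers transcription. In liver the hormone is best known for raising enzymes that break down amino acids and feed their carbon into glucose during fasting. The same receptor induces Fkbp5, which restrains the receptor itself, and Tsc22d3 and Dusp1, which damp inflammatory signalling. Metallothioneins are small cysteine-rich proteins that bind zinc and copper. They are induced both by zinc, through the metal-sensing factor Mtf1, and by glucocorticoids.

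Promoter windows of 250 bases upstream of the RefSeq start sites (GRCm38) were found for 8 of the 9 genes; Sds had no entry. They are shown because these windows, as set by the listed start sites, differ in whether they hold sequences typical of the hormone and metal responses. Both strands were searched for GNACA and TGTNC set 3 bases apart, the inner part of the glucocorticoid receptor's palindrome, for TGCACNC and TGCGCNC, the core of the metal response element, and for TGACGTCA, the cyclic AMP response palindrome. The stretches of 30 bases around each match are given 5′ to 3′ on the gene's strand, with the match in capitals, and positions count back from the start site.
Mt1, receptor palindrome, first base at -94, plus strand, chr8:94178987-94179016: cactatagGGACATGATGTTCcacacgtca
Mt1, metal response core, first base at -23, plus strand, chr8:94179055-94179084: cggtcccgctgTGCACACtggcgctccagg
Mt2, metal response core, first base at -223, plus strand, chr8:94172384-94172413: agcatcgcctcTGCACCCggcccctcgggc
Mt2, metal response core, first base at -128, plus strand, chr8:94172479-94172508: cgcagacccttTGCGCTCagctcctttgct
Mt2, metal response core read on the opposite strand, first base at -50, plus strand, chr8:94172557-94172586: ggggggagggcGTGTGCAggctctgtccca
Sgk1, receptor palindrome, first base at -188 of the start listed as number 5 of 6, plus strand, chr10:21993694-21993723: tgcggaaaGAACAGAATGTTCtcggagatt
Dusp1, cyclic AMP palindrome, first base at -143, minus strand, chr17:26508597-26508626: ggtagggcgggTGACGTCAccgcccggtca

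Of 27025 promoter windows of this length, 0.381% held GNACA and TGTNC with that spacing, 21.3% held at least 1 match to TGCACNC or TGCGCNC, 1.28% held 3 or more such matches, and 1.62% held TGACGTCA. These shares count 1 window for each gene, the first listed. Mt2 was thus among the few with 3 metal response cores, and Mt1 among the few with the receptor palindrome. Sgk1, with the palindrome at 1 start, was searched in 6 windows and Tsc22d3 in 3. Their matches are therefore not comparable with shares that count 1 window for each gene. The Mt1 gene model begins at 94178883, upstream of the start site used, so its window overlaps a longer Mt1 transcript. Sequence downstream of the start sites used was not searched. The matches of Mt1 and Mt2 are thus those of these windows and not of the whole promoters. None of these 4 patterns was found in the windows of Tat, Tdo2, Fkbp5 or Tsc22d3. The shorter hormone-type sequence AGAACA, present in 16.2% of windows, was found in 1 of the 3 windows of Tsc22d3 (first base at -185) and in 3 of the 6 of Sgk1. The TATA pattern TATAAA, present in 13% of windows, was found in that of Tdo2 (first base at -229) and in 2 of Sgk1 (-28 and -11). That says nothing of more distant sequence. A match is a description of letters and not of binding.

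The Ribo-seq libraries differed in depth. Steps between RPKM values (reads per kilobase of gene, scaled to library size) gave totals of 834410 to 4405541 reads in HFD and 311050 to 412116 reads in LYC, and the ratio of the median totals, HFD over LYC, was 6.91. At a length of 1 kb a single read thus stood for 0.227 to 1.20 RPKM in HFD but for 2.43 to 3.21 RPKM in LYC. Small non-coding RNAs held 2.47% to 3.94% of assigned reads in HFD and 8.42% to 13.0% in LYC. The libraries labelled RNA-seq do not stand apart from the Ribo-seq libraries: each carries nearly the reads of 1 Ribo-seq library, and the numbers of the HFD libraries are exchanged between the tables (Ribo-seq HFD1 corresponds to HFD3 of the other table, HFD2 to HFD1 and HFD3 to HFD2). Over the 9 genes, the reads of matched libraries differed by 0.141% to 2.49% in sum. That table was therefore not used as an independent measure of mRNA, and no translational efficiency is given. Which kind of RNA the shared reads came from cannot be told apart from these tables, so that the levels below count ribosome footprints rests on the label of the table. All 7 hepatocyte markers were above 0 in every library, with a summed RPKM, before scaling, of 41298 to 45359 in HFD and 27946 to 37126 in LYC.

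LYC was compared with HFD to see which genes held more or fewer reads in the table labelled Ribo-seq when lycopene was added to the high-fat diet. The 3 amino acid-degrading enzymes Tat, Tdo2 and Sds and the signalling inhibitor Tsc22d3 rose in LYC, each by between 1.56 and 1.81 on the log2 scale. Dusp1 pointed the other way without being called. Fkbp5 was higher in 2 of the 3 LYC libraries and Mt1 in all 3, on few reads, and Sgk1 and Mt2 showed no separation of the groups. The test was limma's moderated test, two-sided, on log2(RPKM / TMM factor + 1), with libraries scaled by trimmed means of M-values (TMM). Genes were called when p was below 0.01 before adjustment and the log2 fold change was beyond 1 or -1. The test covered 5775 genes with enough reads, 5 of the 9 genes among them. It called 4 of these 5 higher and 0 lower (1, Dusp1, was lower at an unadjusted p under 0.05, and DESeq2 but not edgeR called it), against 7.00% of all genes tested called higher (404 genes) and 6.30% called lower (364 genes). Without the TMM factors the calls over all genes numbered 235 higher against 651 lower, with the median over all genes moving from -0.10 to -0.36 (log2), while the same 4 genes were called higher.

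**Figure D1:**
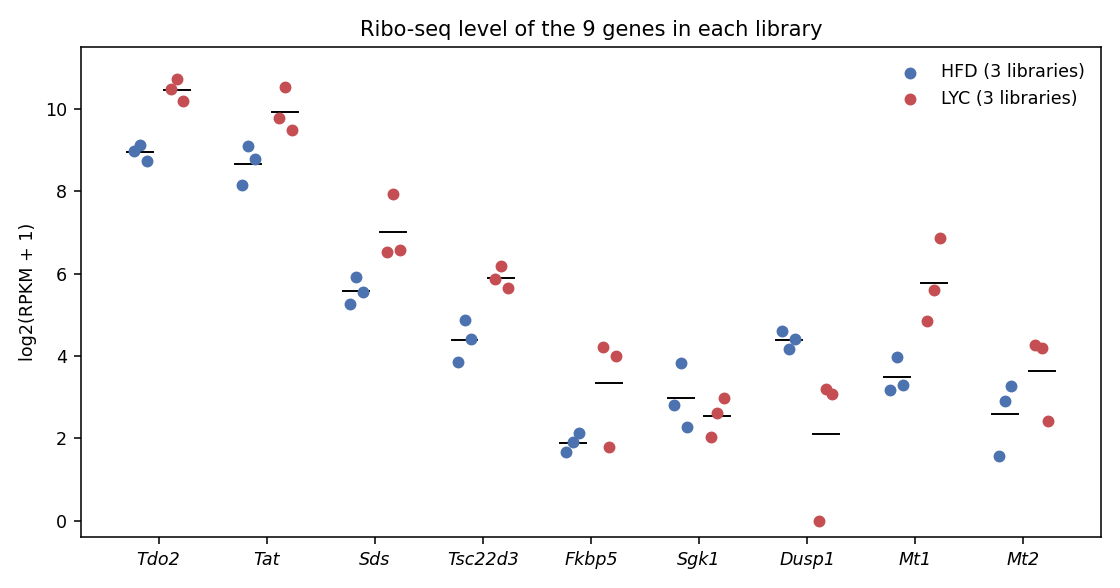
Level of each of the 9 genes as log2(RPKM + 1), with 1 point for each Ribo-seq library (blue, HFD; red, LYC) and a black bar at the group mean. The LYC points of Tdo2, Tat, Sds, Tsc22d3 and Mt1 all lie above the HFD points, those of Dusp1 all lie below, and those of Fkbp5, Sgk1 and Mt2 overlap.

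Tdo2 encodes tryptophan 2,3-dioxygenase, the hepatic enzyme that opens the ring of tryptophan and commits it to the kynurenine route. The gene lies on chromosome 3 of GRCm38 from 81958412 to 81975728. Its RPKM was 505, 556 and 427 in HFD1, HFD2 and HFD3 and 1434, 1685 and 1171 in LYC1, LYC2 and LYC3. Every LYC library was more than double the highest HFD library, and LYC2 was the highest of all. These values rest on 6830 reads in HFD and 2568 reads in LYC, which makes Tdo2 one of the best measured of the 9 genes. The group means were 496 ± 65.0 in HFD and 1430 ± 257 in LYC (SD, n = 3). The log2 fold change was 1.81 (standard error 0.24, adjusted p = 0.00332, limma with Benjamini-Hochberg adjustment over all genes tested). By mean RPKM, Tdo2 ranked 87 among 14196 protein-coding genes in HFD and 32 in LYC.

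Tat encodes tyrosine aminotransferase, the first enzyme of tyrosine breakdown and the classical hepatic gene of glucocorticoid induction. It lies on chromosome 8 from 109986078 to 109999804. The RPKM of Tat was 282, 548 and 441 in HFD and 883, 1490 and 716 in LYC, from 8441 and 2631 reads. The groups did not overlap, though LYC3 stood only moderately above HFD2. Means were 424 ± 134 in HFD and 1030 ± 408 in LYC (SD, n = 3). The log2 fold change was 1.56 (standard error 0.32, adjusted p = 0.0186, limma). Tat ranked 106 among protein-coding genes in HFD and 51 in LYC.

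Sds encodes serine dehydratase, which turns serine into pyruvate and ammonia and so supplies carbon for glucose. It lies on chromosome 5 from 120476547 to 120483932. Sds stood at 37.8, 59.3 and 46.3 RPKM in HFD and at 91.5, 243 and 93.8 RPKM in LYC, from 469 and 175 reads. LYC1 and LYC3 were close to each other and LYC2 was well above both, so the LYC mean of 143 ± 86.8 (SD, n = 3) leans on 1 library. The HFD mean was 47.8 ± 10.8 (SD, n = 3). The log2 fold change was 1.71 (standard error 0.34, adjusted p = 0.0178, limma). Without LYC2 it came to 1.32 and Sds was still called.

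On the RPKM scale, which is per length, Sds was the lowest of the 3 enzymes in every library. Tdo2 stood above Tat in every library except HFD3, where Tat was slightly higher. By RPKM the library numbered 2 was the highest of its group for all 3 enzymes; after division by the TMM factors this held for Tat and Sds, while HFD1 and LYC1 were highest for Tdo2. HFD2 was also the deepest library, and LYC2 held the smallest share of small non-coding RNA within LYC; the part of either in the levels was not tested. Of 19 other amino acid-degrading enzymes, 17 were tested, and limma called 1 higher and 1 lower (5 and 1 at an unadjusted p under 0.05). Their median was 0.11 (log2 fold change), beside -0.10 over all genes tested, and -0.18 beside -0.36 without TMM factors. Without TMM factors limma called 0 of them higher and 1 lower, whereas edgeR and DESeq2 each called 2 higher and 1 lower. The gene called lower by limma was Gldc, the glycine decarboxylase of the glycine cleavage system. Gldc went from 53.7, 88.8 and 67.4 RPKM in HFD to 18.1, 22.9 and 21.8 RPKM in LYC (log2 fold change -1.38, standard error 0.24, adjusted p = 0.010, limma).

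Tsc22d3 encodes GILZ, a leucine zipper protein that glucocorticoids induce and that restrains inflammatory transcription. The gene lies on chromosome X from 140539528 to 140600522. Tsc22d3 measured 13.4, 28.3 and 20.5 RPKM in HFD and 58.1, 72.5 and 49.0 RPKM in LYC, from 459 and 169 reads. The lowest LYC library was well above the highest HFD library. Means were 20.7 ± 7.46 in HFD and 59.9 ± 11.8 in LYC (SD, n = 3), and the log2 fold change was 1.81 (standard error 0.29, adjusted p = 0.00748, limma). Of its 28-base windows, 2.37% also occur in other genes, so a small part of its reads could belong elsewhere.

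Fkbp5 encodes FKBP51, a co-chaperone of Hsp90 that lowers the receptor's affinity for hormone and is itself induced by the receptor. It lies on chromosome 17 from 28398753 to 28486149. Fkbp5 stood at 2.17, 2.75 and 3.39 RPKM in HFD, and at 17.6 and 15.0 RPKM in LYC1 and LYC3 but 2.48 RPKM in LYC2. LYC2 thus lay inside the HFD range while the other two LYC libraries lay above it. The counts were 27 and 24 reads in LYC1 and LYC3 and 3 reads in LYC2, whose exact 95% Poisson interval of 0.512 to 7.26 RPKM stays below the other two (11.6 to 25.6 RPKM in LYC1 and 9.61 to 22.3 RPKM in LYC3). Fkbp5 did not pass the filter on low genes. Its difference was 1.68 on the log2 scale, with p = 0.2 in a two-sided exact permutation test over the 6 libraries, where 0.1 is the smallest p that 3 against 3 allows. In the limma fit with no filter the unadjusted p was 0.0545. In the fit without LYC2, the library that goes against the other 2, the log2 fold change was 2.52 and was called. Fkbp5 passed the filter of that fit through LYC1 and LYC3, where it is high, so this call does not support the difference. Leaving out any other single library gave log2 fold changes of 1.17 to 1.81, and Fkbp5 was not called. LYC2 was the highest LYC library for Tat and Sds and the lowest for Fkbp5, with or without TMM factors. For Tdo2 and Tsc22d3 it was the highest by RPKM, and LYC1 was the highest after division by the TMM factors.

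Sgk1 encodes a serine/threonine kinase that hormones of the adrenal cortex induce and that promotes sodium transport. It lies on chromosome 10 from 21882184 to 21999903. Sgk1 was at 6.06, 13.3 and 3.87 RPKM in HFD and at 3.07, 5.19 and 6.85 RPKM in LYC, the latter from 3, 4 and 7 reads. The groups overlapped, the difference was -0.19 on the log2 scale (p = 0.7, exact permutation test), and the LYC group held 14 reads in all. Without LYC1 the difference was 0.0026. With the filter lifted and the trend of fold change with gene length removed it was 0.013, so its sign is not settled. Sgk1 did not pass the filter.

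Dusp1 encodes MKP-1, a phosphatase that switches off p38 and JNK kinases and is among the immediate targets of the receptor. It lies on chromosome 17 from 26505591 to 26508472. Dusp1 was at 23.4, 16.9 and 20.4 RPKM in HFD and at 0, 8.28 and 7.50 RPKM in LYC. By RPKM, before TMM scaling, all LYC libraries lay below all HFD libraries. On that scale 27.5% of all genes tested also showed this separation, whereas 9.87% were separated in the other direction. The LYC values rest on 0, 5 and 6 reads, and 0 reads in LYC1 allow up to 3.92 RPKM (3 reads). The log2 fold change was -2.12 (standard error 0.79, unadjusted p = 0.0260, adjusted p = 0.118, limma), short of a call. Dusp1 was called lower by DESeq2 on the recovered reads (unadjusted p = 0.00556), without TMM factors and with a pseudocount of 4, and without LYC1 the log2 fold change was -1.06 and not called. Of 5 other dual specificity phosphatases tested, 0 were called in either direction by limma, edgeR or DESeq2, and limma gave 0 an unadjusted p under 0.05.

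**Figure D2:**
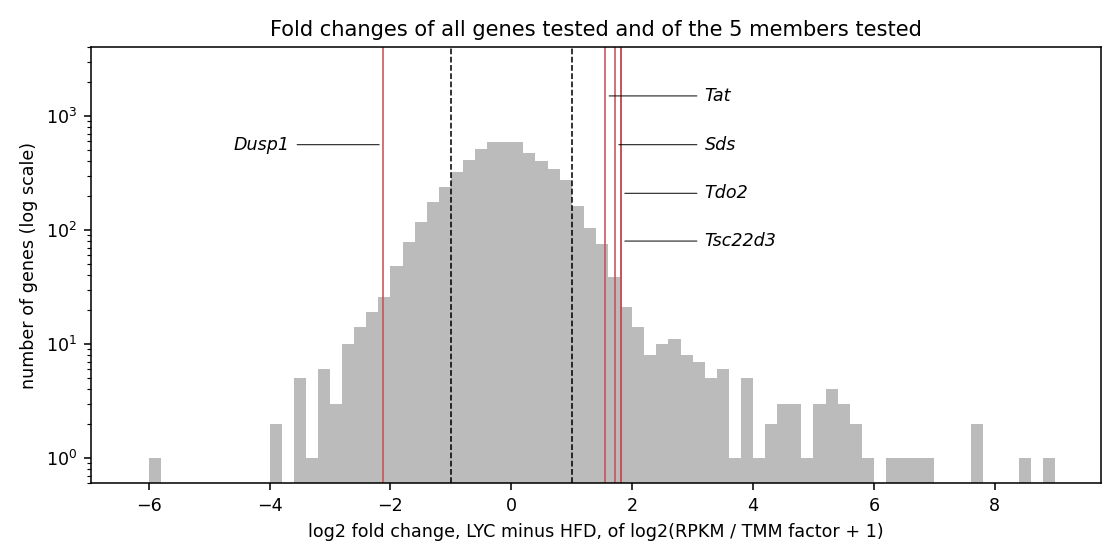
Histogram of the log2 fold change (LYC minus HFD) of the 5775 genes tested, with the number of genes on a log axis. Red lines mark the 5 of the 9 genes that were tested and dashed lines the limits of 1 and -1; Tat, Sds, Tdo2 and Tsc22d3 lie between 1.56 and 1.81, and Dusp1 at -2.12.

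Mt1 and Mt2 lie side by side on chromosome 8, Mt2 from 94172618 to 94173567 and Mt1 from 94178883 to 94180327. Both bind zinc and copper ions through cysteines. Their transcripts are short (542 and 556 bases), so 1 read in a LYC library was worth 4.36 to 5.93 RPKM. Mt1 stood at 8.12, 14.7 and 8.84 RPKM in HFD and at 28.1, 47.5 and 116 RPKM in LYC. All LYC libraries lay above all HFD libraries by RPKM, as for 9.87% of the genes tested, and LYC3 stood far above LYC1 and LYC2. These values come from 12, 35 and 4 reads and from 6, 8 and 26 reads. By counting error alone the interval of LYC1 (10.3 to 61.1 RPKM) reached into those of all 3 HFD libraries, and that of LYC2 (20.5 to 93.5 RPKM) into that of HFD3 (2.41 to 22.7 RPKM). The interval of LYC3 (76.0 to 171 RPKM) alone lay above every HFD interval.

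Mt1 did not pass the filter. Its difference was 2.57 on the log2 scale, the exact permutation test gave the smallest p it allows (0.1), and in limma without the filter the unadjusted p was 0.00110 and the adjusted p 0.0328. Short genes tended to be higher in LYC: the 166 protein-coding genes tested of up to 700 bases lay at a median of 0.49 (log2 fold change), compared with -0.23 among the 3008 of over 3000 bases. With the filter lifted and the length trend removed, an alternative chosen after seeing the data, Mt1 stayed at 2.56 (limma, unadjusted p = 0.00118). That trend was fitted over all genes with a read and not over the genes tested. It barely moved Mt1, so this fit cannot tell whether length had a part in the difference. In each of the 6 fits that left out 1 library, where the filter asks for fewer libraries, Mt1 was kept and called higher, with log2 fold changes of 2.02 to 2.95. It passed that filter through LYC alone, the group where it is high, so these calls do not support the difference.

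Mt2 was measured on fewer reads still. It stood at 1.98, 6.53 and 8.62 RPKM in HFD (3, 16 and 4 reads) and at 18.2, 17.3 and 4.36 RPKM in LYC (4, 3 and 1 reads). LYC1 and LYC2 lay above HFD and LYC3 inside it, the opposite of Mt1, which was highest in LYC3. The difference was 1.30 on the log2 scale (p = 0.3, exact permutation test), and with 8 reads in the whole LYC group it cannot be placed more closely. Of the 28-base windows of Mt2, 1.22% are shared with Pip5k1a, and none of those of Mt1 with any other gene.

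Of 24 other genes of zinc and copper handling, 19 were tested, 0 were called higher and 4 lower by limma (2 and 7 at an unadjusted p under 0.05; 0 and 5 called by edgeR and by DESeq2). Their median was -0.70 (log2 fold change), beside -0.10 over all genes tested. With the length trend removed 3 were called lower (median -0.60), Slc30a1 no longer among them, and without TMM factors 6 (median -0.97). Slc30a1, the zinc exporter of the plasma membrane and like the metallothioneins a target of Mtf1, fell. Its RPKM was 10.7, 15.3 and 12.8 in HFD and 4.85, 2.46 and 4.64 in LYC, from 24 LYC reads in all (log2 fold change -1.25, standard error 0.36, adjusted p = 0.0567, limma). Leaving out any library other than LYC1 ended that call, with values of -1.47 to -0.95 over the 6 fits. The zinc transporters Slc39a1 and Slc39a7 and the manganese exporter Slc30a10 also fell, with log2 fold changes of -1.57, -1.86 and -2.62 from 26, 24 and 7 reads in LYC. Slc30a10 was called in all 6 fits that left out a library, whereas Slc39a1 and Slc39a7 were not called without HFD3, LYC1 or LYC2 (log2 fold changes over the 6 fits of -1.96 to -1.34 and -2.35 to -1.43). Mtf1 itself was at 2.60, 4.16 and 2.20 RPKM in HFD and at 1.66, 0 and 0.954 RPKM in LYC, and was not called (log2 fold change -0.97, adjusted p = 0.181, limma). The difference of Mt1 and those of the 4 called genes of metal handling thus had opposite signs. Of the 19 tested, 4 shared the sign of Mt1, among them Ccs and Atox1 (log2 fold changes 0.83 and 0.82, not called). The part of Mtf1 in these levels was not tested.

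Of 16 genes that carry, activate or receive the hormone, 14 were tested, 2 were called higher and 0 lower by limma, edgeR and DESeq2 alike (limma gave 4 higher and 2 lower at an unadjusted p under 0.05), and their median was -0.33 (log2 fold change). Without TMM factors limma called 1 higher and 2 lower. Nr3c1, the glucocorticoid receptor, was at 16.3, 19.6 and 9.88 RPKM in HFD and at 7.09, 8.00 and 7.17 RPKM in LYC. By RPKM, before TMM scaling, all LYC libraries lay below HFD, as for 27.5% of all genes tested. The difference was not called (log2 fold change -0.63, standard error 0.31, adjusted p = 0.207, limma). Hsd11b1, which regenerates active corticosterone inside hepatocytes, was at 246, 297 and 278 RPKM in HFD and at 175, 185 and 201 RPKM in LYC (log2 fold change -0.25, adjusted p = 0.469, limma). The 2 called higher were chaperones that hold the receptor ready for hormone. Hsp90aa1 went from 68.2 ± 10.5 to 212 ± 50.3 RPKM (SD, n = 3; log2 fold change 1.89, adjusted p = 0.00748, limma) and Stip1 from 22.1 ± 5.11 to 43.2 ± 6.52 RPKM (SD, n = 3; log2 fold change 1.23, adjusted p = 0.0345, limma). Stip1 was not called without HFD2, HFD3 or LYC1 (0.95 to 1.42 over the 6 fits) or without TMM factors.

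Of 20 further genes known to be induced by glucocorticoids, 15 were tested, and limma, edgeR and DESeq2 each called 4 higher and 0 lower (5 and 0 at an unadjusted p under 0.05 in limma). Their median log2 fold change was 0.32, and 12 of the 15 were above 0, beside 2598 of the 5775 genes tested. Without TMM factors the median was 0.04 and 9 were above 0, beside 1842 of the 5775, with the same number of calls. The median was 0.60 with the length trend removed, 0.74 in DESeq2 and 0.75 in edgeR. Pck1, phosphoenolpyruvate carboxykinase of gluconeogenesis, was at 253, 530 and 405 RPKM in HFD and at 958, 1731 and 747 RPKM in LYC, so HFD2 and LYC2 were highest by RPKM, as for Tat. Got1, an aspartate aminotransferase, rose from 66.4 ± 18.8 to 200 ± 63.3 RPKM (SD, n = 3; log2 fold change 1.86, adjusted p = 0.00395, limma). Angptl4, an inhibitor of lipoprotein lipase, rose from 20.5 ± 3.00 to 58.7 ± 17.9 RPKM (SD, n = 3; log2 fold change 1.72, adjusted p = 0.0108, limma). Lpin1, a phosphatidate phosphatase, had the largest change of the 15, a log2 fold change of 3.21. Pck1, Got1, Angptl4 and Lpin1 were called in all 6 fits that left out a library. Per1, a clock gene that the receptor induces directly, was not called, at 1.02, 4.13 and 1.80 RPKM in HFD and 1.63, 5.51 and 4.68 RPKM in LYC.

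Many of these genes are also under the daily clock, and adrenal hormone itself follows a daily rhythm. Of 13 clock genes 8 were tested, 3 were called higher and 1 lower (1 and 1 without TMM factors). Dbp, an output factor of the clock with a strong daily rhythm in liver, was at 1.09, 7.30 and 5.00 RPKM in HFD and at 21.2, 51.7 and 31.8 RPKM in LYC, and its log2 fold change was 3.10 (standard error 0.49, adjusted p = 0.00741, limma). Per2 was also called higher (log2 fold change 1.17), but not without LYC1 or LYC2 (0.99 to 1.34 over the 3 such fits that kept it), and Clock lower (log2 fold change -1.25), but not without any 1 of the HFD libraries (-1.41 to -1.19) or with the length trend removed. Dbp was called in all 6 fits. The part of these genes in the levels of the 9 genes was not tested. Of 11 acute phase genes, 7 were tested, and Orm1, an orosomucoid that glucocorticoids and inflammation raise, was the only one called, from 254 ± 7.40 to 459 ± 72.1 RPKM (SD, n = 3; log2 fold change 1.13, adjusted p = 0.0291, limma). In limma the median log2 fold change of the 7 was -0.08, and 3 of them were above 0. At an unadjusted p under 0.05 limma gave 1 higher and 1 lower. The median was 0.37 in edgeR and in DESeq2. Without TMM factors the median was -0.32, Orm1 was not called and 1 other gene of the list was called lower. Orm1 was also not called with the length trend removed or without HFD2 or LYC1 (0.94 to 1.33 over the 6 fits). Of the related family members of the 9 genes, 4 were tested and limma called 0 (1 was lower at an unadjusted p under 0.05); edgeR and DESeq2 each called 1 of them lower.

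**Figure D3:**
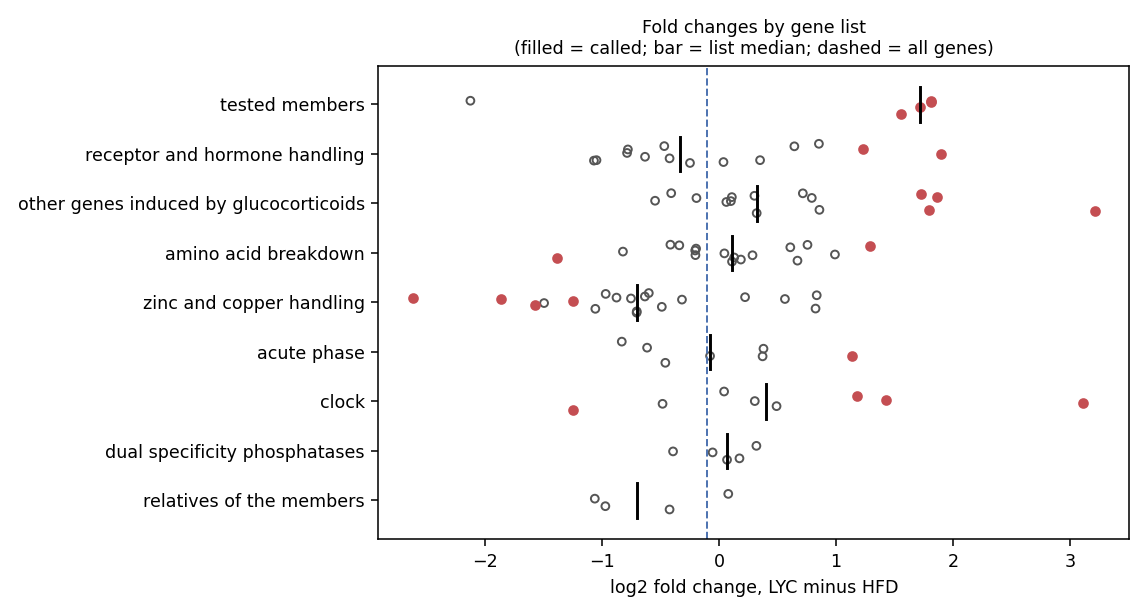
Log2 fold change (LYC minus HFD) of the tested genes of each list, with 1 point for each gene, filled where called; black bars are list medians and the dashed line is the median of all genes tested, -0.10. The further genes induced by glucocorticoids lie to the right of that line at the median, 0.32, and those of zinc and copper handling to the left, -0.70.

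In whole liver, fewer cells of a type and less RNA per cell cannot be told apart. Cps1, a hepatocyte marker, was called higher, though in only 1 of the 6 fits that left out a library (0.90 to 1.36), while the other 6 hepatocyte markers were not called. Summed Kupffer cell markers spanned 92.5 to 130 RPKM in HFD and 85.8 to 153 RPKM in LYC, and summed endothelial markers 52.0 to 70.8 RPKM in HFD and 11.9 to 102 RPKM in LYC, with the lowest value in LYC2. Summed stellate markers lay at 79.0 to 149 RPKM in HFD and at 80.3 to 109 RPKM in LYC, and erythroid markers at 272 to 581 RPKM and 419 to 559 RPKM. Cholangiocyte and lymphocyte markers were at most 5.09 RPKM in sum in any library, and Krt19, Krt7, Epcam, Cd3e and Cd79a were at 0 in all LYC libraries. Those sums lie close to the worth of single reads in LYC, so their groups are not compared. On this scale the hepatocyte sums were lower in every LYC library than in any HFD library. After division by the TMM factors the hepatocyte sums overlapped (35892 to 40349 in HFD and 27833 to 40592 in LYC), and the Kupffer cell sums lay above HFD (89.8 to 103 in HFD and 106 to 153 in LYC). Their part in the levels of the 9 genes was not tested.

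The genes most alike in level over the 6 libraries were sought for each of the 5 genes tested, by Pearson's r of log2(RPKM / TMM factor + 1), as a description over points that share depth and group. For Tat these were Pck1 (r = 0.9997) and Heatr1 (r = 0.993). For Tdo2 they were Mpc2 (r = 0.999) and Mir6516 (r = 0.997), for Sds Rpl7l1 (r = 0.998), for Tsc22d3 Idh3g (r = 0.998) and Nnmt (r = 0.997), and for Dusp1 Rap2c (r = 0.993) and Snrpa (r = 0.992). Each was among the 2 highest of 5775 genes over only 6 libraries, and no p is given.

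**Figure D4:**
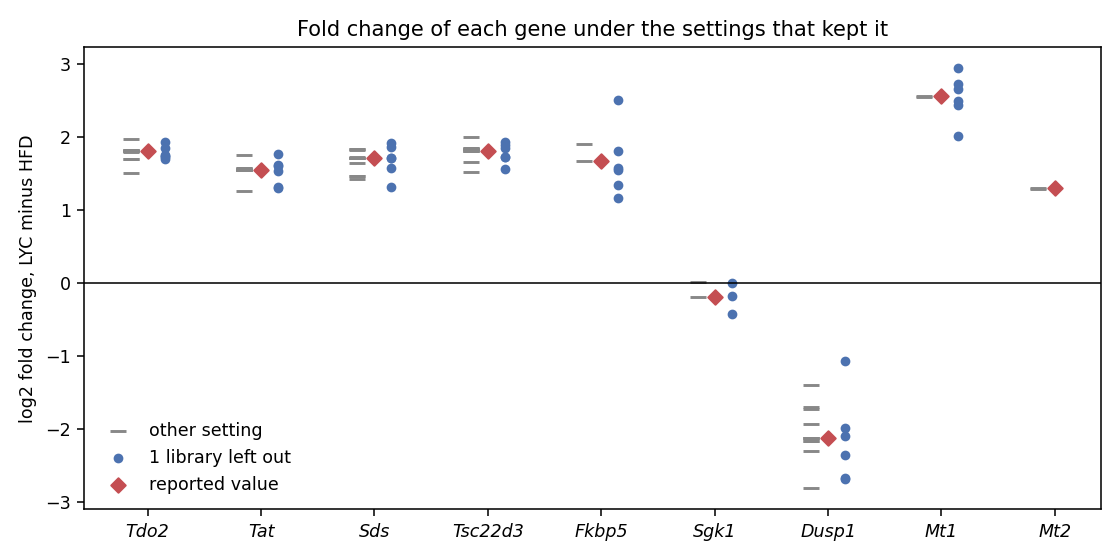
Log2 fold change (LYC minus HFD) of each of the 9 genes as reported (red diamonds), with 1 library left out (blue points) and under each other setting (grey dashes), for the settings in which the gene was kept. Tdo2, Tat, Sds and Tsc22d3 stay between 1.26 and 2.01, whereas Dusp1 ranges from -2.81 to -1.06 and Sgk1 lies close to 0.

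The 4 called genes were called in all 6 fits that each left out 1 library. Over the 18 alternatives run, the log2 fold change lay between 1.26 and 1.77 for Tat, 1.52 and 1.97 for Tdo2, 1.32 and 1.93 for Sds, and 1.53 and 2.01 for Tsc22d3. The largest unadjusted p among these alternatives was 0.00506, for Tat.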

How the data were processed

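The authors deposited RPKM values per gene for the 6 Ribo-seq libraries, for which the study's methods name cutadapt and bowtie2 for cleaning, STAR for alignment to GRCm38/mm10, and FANSE2 for quantification, and read counts with RPKM for the libraries labelled RNA-seq. Versions and filters are not given in the sources used here. Reads behind each RPKM were recovered from the steps between values and from gene lengths: the lengths implied by the deposited counts gave whole reads (tolerance 0.03 of a read) for 11182 of the 15749 genes above 0, and a fitted length was used for the other 4567. Of the entries, 26 had names turned into dates and 4 sharing a name were left out. As the unit is RPKM, limma on log2 RPKM was the main test. RPKM was divided by TMM factors of edgeR and 1 was added. Genes were kept by edgeR's filterByExpr on recovered reads. Genes below it were given an exact permutation test. A log2 fold change understates the change of a low gene because of the pseudocount. Poisson intervals (95%) and the floor of 3 reads cover counting error only.

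The 9 genes, the lists around them and the tests were chosen with earlier results of these data known, and no list was tested as a whole. From each list, the genes named are those called whose libraries did not overlap, at most 4 by smallest p, with Nr3c1, Hsd11b1, Mtf1, Slc30a1 and Per1; the cell type markers, and the counts they give, were named as listed. For each gene tested the 2 most alike genes were sought. Not every gene that these rules cover is reported here. Coordinates come from GENCODE models on GRCm38 and promoters from RefSeq on the same build. The scripts were tested on simulated data. Other scalings, pseudocounts (0.25 and 4), thresholds, no filter, edgeR and DESeq2 on recovered reads, a replicate block, removal of the length trend, and each library left out were run as alternatives. Fits were made in R 4.3.3 with limma 3.58.1, edgeR 4.0.16 and, as an alternative, DESeq2 1.42.0. Tables and plots were made in Python 3.11.15 with pandas 2.3.3, numpy 2.4.6 and matplotlib 3.10.9, and intervals with scipy 1.17.1.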

Additional observations from a re-analysis of the deposited data

How the results depend on the processing

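Tat, Tdo2, Sds and Tsc22d3 were called higher in all 18 alternatives run, and 0 of the 9 genes were called lower in most of them. Under the RPKM as deposited, with a pseudocount of 4 and with DESeq2, 1 of the 9 genes, Dusp1, was called lower. The counts over all genes moved more: 235 higher and 651 lower without TMM factors, 710 lower with no filter, and 196 higher and 101 lower at an unadjusted p below 0.001. With neither filter nor length trend, an alternative chosen after seeing the data, 620 were called higher. Leaving out 1 library gave 268 to 573 higher and 143 to 704 lower, the lowest without HFD3 and the highest without LYC3; lower calls were 170 without HFD1 and 188 without HFD2. The cause was not tested. The filter left Fkbp5, Sgk1, Mt1 and Mt2 out of the reported fit; Mt1 and Fkbp5 were kept in every fit without 1 library, and the 4 genes held 54, 14, 40 and 8 reads in LYC.

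Replicate numbers are shared between HFD and LYC but nothing in the labels ties equal numbers to a shared animal or batch. Deviations from the group means correlated at 0.108, 0.0262 and 0.00730 for numbers 1, 2 and 3, and HFD2 correlated more with LYC3 (0.0650) than with LYC2, so the numbers do not pair the libraries. With the replicate block 397 genes were called higher and 340 lower, 4 of the 9 genes higher and 0 lower (unadjusted p of Dusp1 0.0149, where edgeR gave 0.0111 and DESeq2 0.00556).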
